A study of Mus musculus with 12 samples.

Results

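The genes described here are 34 components of the endoplasmic reticulum (ER) folding machinery and of the unfolded protein response. They were taken by symbol from a deposited table of 54532 mouse genes, and all 34 were found there. Each of the 34 had enough counts to be among the 14506 genes tested.

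The study cultured resident peritoneal macrophages of C57BL/6 mice in basic DMEM for 24 h and sequenced their RNA in 12 libraries, 3 in each of 4 groups. The groups were MOPS given LPS (written MOPS+LPS), HEPES given LPS (HEPES+LPS), MOPS and HEPES, named after the buffer of the medium. LPS, the bacterial lipopolysaccharide sensed by Toll-like receptor 4, was given at 10 ng/ml for 2 h, and the MOPS and HEPES groups without it were untreated. The title concerns extracellular acidity, and its question is how an acid medium changes macrophages and their response to LPS. The design text lists pH 6.8 and 7.4 and then MOPS and HEPES, so pH 6.8 is taken to belong to MOPS and pH 7.4 to HEPES from word order alone. Buffer and pH changed together, so every difference between media is a difference between whole media. The labels do not say whether the 3 libraries of a group came from separate animals or cultures, and the p-values cover library-to-library spread alone. These are bulk samples, in which fewer cells of a type and less RNA per cell cannot be told apart.

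Library totals ran from 20114613 to 24734853 counts. Summed over libraries, counts of the 34 genes ran from 13924 for Dnajb12 to 1619781 for Hspa5. Levels are given as CPM, counts relative to library size, after scaling each library with TMM factors, a trimmed-mean scaling that sets the typical gene at no change. Within groups these levels were tight: the median coefficient of variation of the 34 genes was 2.74% in MOPS+LPS, 2.94% in HEPES+LPS, 2.48% in MOPS and 2.38% in HEPES.

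Proteins that enter the secretory pathway fold in the ER with the help of chaperones, lectins and disulfide isomerases, and those that fail are sent back to the cytosol for degradation. When unfolded proteins build up, the ER membrane sensors IRE1 (gene Ern1), ATF6 and PERK (gene Eif2ak3) start the unfolded protein response. IRE1 splices the Xbp1 mRNA, ATF6 is cut into a transcription factor, and both factors act on chaperone and degradation genes, while PERK slows translation and induces ATF4. In macrophages this machinery also makes the cytokines and receptors of the inflammatory response, and Hsp90b1 (GRP94) is the chaperone that Toll-like receptors need to fold. Gene counts do not separate spliced from unspliced Xbp1 mRNA and say nothing of sensor activity.

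The DNA element best known from this response is the ER stress response element, CCAAT and CCACG separated by any 9 bases, which NF-Y and the factors ATF6 and XBP1 recognise. It was searched for on both strands of the 250 bases before the RefSeq start site (build GRCm38.p6), a window given for 29 of the 34 genes (Ero1l and Ero1lb through their current symbols). Windows were not given for Derl1, Atf6, Manf, Hyou1 and Sec61a1. The element was found for 9 of the 29 genes (31%), against 37 of 32851 windows of all genes (0.113%). The 29 are counted by gene, as Derl2 has more than 1 window, and the background is counted by window. The sites are shown because the element is far more frequent in these windows than in all windows, with the CCAAT and CCACG parts in capitals and read 5′ to 3′ on the strand that holds the element.
Hspa5, chr2:34772025-34772043, + strand: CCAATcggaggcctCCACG
Hsp90b1, chr10:86705638-86705656, - strand: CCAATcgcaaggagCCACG
Hsp90b1, chr10:86705533-86705551, + strand: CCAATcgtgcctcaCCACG
Pdia6, chr12:17266491-17266509, + strand: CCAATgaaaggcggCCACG
Calr, chr8:84847075-84847093, + strand: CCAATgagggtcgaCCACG
Canx, chr11:50325800-50325818, - strand: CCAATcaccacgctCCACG
Dnajc3, chr14:118937827-118937845, + strand: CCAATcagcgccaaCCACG
Syvn1, chr19:6046532-6046550, + strand: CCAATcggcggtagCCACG
Creld2, chr15:88819520-88819538, - strand: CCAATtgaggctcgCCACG
Ero1lb, chr13:12565682-12565700, - strand: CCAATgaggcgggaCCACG
In each site the 9 bases between the fixed parts held 6 or 7 G or C. Element II, ATTGG and CCACG separated by 1 base, was found in Herpud1 alone among the 29 genes and in 10 of all windows (0.0304%).
Herpud1, chr8:94386377-94386387, + strand: ATTGGgCCACG
The core of the unfolded protein response element, TGACGTG, was found in Hspa5 alone among the 29 and in 542 of all windows (1.65%). CCACG by itself was present for 21 of the 29 genes and in 28.3% of all windows. CCAAT by itself was present in 22 of the 29 and in 33.8% of all windows, and it is contained in every ER stress response element and, on the other strand, in every element II. A match is a description of letters, and a window without one holds no statement about the factors.

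The upstream sequences of Hspa5, Herpud1 and Syvn1 are printed because these genes had the largest differences in LPS response between media, with the elements in capitals and each on the + strand, 5′ to 3′. That of Hspa5 is given up to the first base of the gene in the deposited table, which lies before the RefSeq start and before the site listed above.
Hspa5, chr2:34771840-34771969: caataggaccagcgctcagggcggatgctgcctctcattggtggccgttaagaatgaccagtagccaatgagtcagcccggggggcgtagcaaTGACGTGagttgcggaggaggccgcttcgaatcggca
Herpud1, chr8:94386179-94386428: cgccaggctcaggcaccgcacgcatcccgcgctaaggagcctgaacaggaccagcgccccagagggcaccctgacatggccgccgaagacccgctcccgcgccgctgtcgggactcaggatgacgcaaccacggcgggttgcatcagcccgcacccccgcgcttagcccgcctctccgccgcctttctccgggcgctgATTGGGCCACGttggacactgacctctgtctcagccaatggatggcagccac
Syvn1, chr19:6046326-6046575: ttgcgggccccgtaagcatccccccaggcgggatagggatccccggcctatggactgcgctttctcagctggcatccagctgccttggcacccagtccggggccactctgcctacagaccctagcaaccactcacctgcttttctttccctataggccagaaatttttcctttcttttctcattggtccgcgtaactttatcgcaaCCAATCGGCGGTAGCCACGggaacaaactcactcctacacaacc

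**Figure D1:**
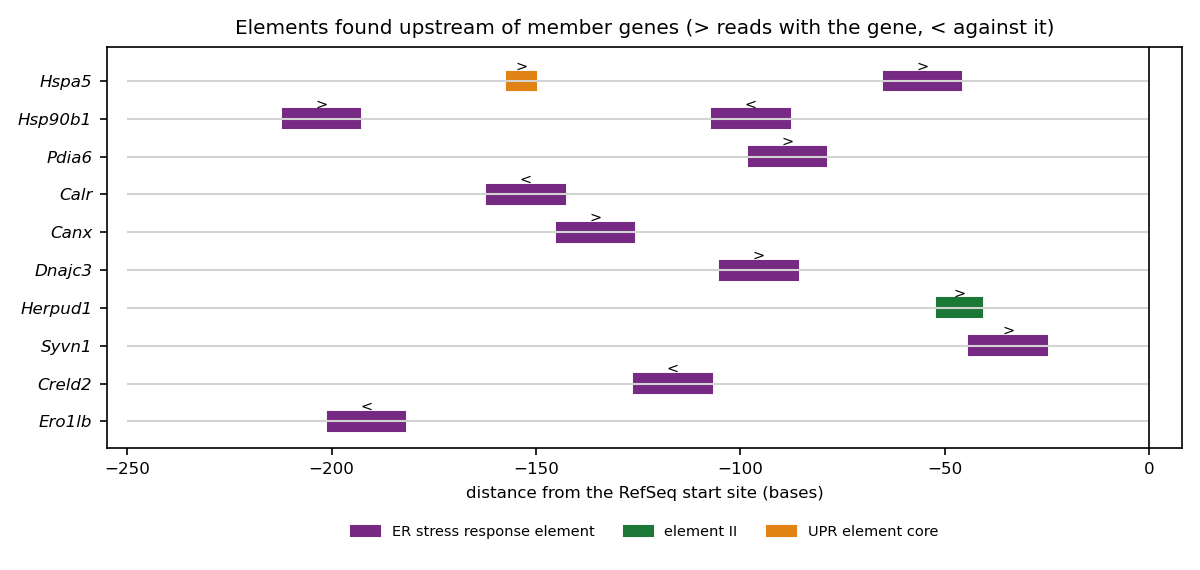
Positions of the elements in the 250 bases before the RefSeq start site (x axis, bases; 0 is the start site) of the 10 genes with at least 1 match; purple boxes are ER stress response elements, the green box element II and the orange box the core of the unfolded protein response element, and arrowheads give the reading direction relative to the gene. The ER stress response elements began between 212 and 44 bases before the start site, and Hsp90b1 held 2 of them.

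Without LPS, 25 of the 34 genes were higher in MOPS than in HEPES macrophages, 2 were lower and 7 were not called. Genes were called at an adjusted p under 0.05 (edgeR's quasi-likelihood test with Benjamini-Hochberg adjustment over 14506 genes), and at that threshold 24.3% of all tested genes were higher in MOPS and 25.4% lower. The differences were small: the median log2 fold change of the 34 was 0.20 (all genes -0.0139) and the range -0.33 to 0.76. Without regard to sign the median was 0.21, against 0.25 for all tested genes. Hyou1 differed by at least 1.5-fold. Creld2 and Derl1, both at 0.57, passed that fold too with RLE factors, total counts or DESeq2, as did Ern1 without MOPS replicate 2 and Creld2 without MOPS replicate 3. The higher genes included 9 of 10 chaperones and co-chaperones, all 6 disulfide isomerases and oxidases and 6 of 9 degradation genes. Of the 25, 23 were also called under each alternative processing.

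With LPS, more of these genes were lower in MOPS than higher. In MOPS+LPS 16 of the 34 were lower than in HEPES+LPS and 8 were higher, against 26.9% lower and 26.9% higher among all tested genes, with a median log2 fold change of -0.078 (all genes 0.00469). The 16 included 7 of 10 chaperones and co-chaperones, 4 of 9 degradation genes, Xbp1 and Ern1. Scaling by total counts alone moved the split of all called genes in this comparison to 62.41% higher, against 50.04% with TMM. Under that scaling 13 of the 16 were called lower too. Leaving out MOPS+LPS replicate 7 or 8, or HEPES+LPS replicate 10, 11 or 12, moved the split to between 44.43% and 45.08% higher. The median of all genes then lay between -0.03388 and -0.04511. Whether single calls changed through this shift was not tested. Differences of at least 1.5-fold were seen for 5 genes, Herpud1, Ufm1, Syvn1 and Hspa5 on the low side and Edem2 on the high side. Without regard to sign, the median log2 fold change was 0.19 for the 34 genes and 0.33 for all tested genes. There were 11 genes that were higher in MOPS without LPS and lower in MOPS+LPS, namely Hspa5, Hsp90b1, Dnajb9, Dnajb11, Dnajc3, Creld2, Ero1l, Sel1l, Syvn1, Ern1 and Sec61a1. For 3 of these a call was lost under an alternative: with total counts the value with LPS was -0.039 for Dnajc3 (adjusted p = 0.411) and -0.05 for Creld2 (adjusted p = 0.316), and Dnajb11 lost its call between untreated media in several. The 7 genes higher in MOPS in both states were Hyou1, Sdf2l1, P4hb, Ero1lb, Edem2, Derl1 and Atf6, and Ufm1 was lower in both. How many of all tested genes showed each of these joint patterns was not counted, so the counts of 11 and 7 have no background.

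**Figure D2:**
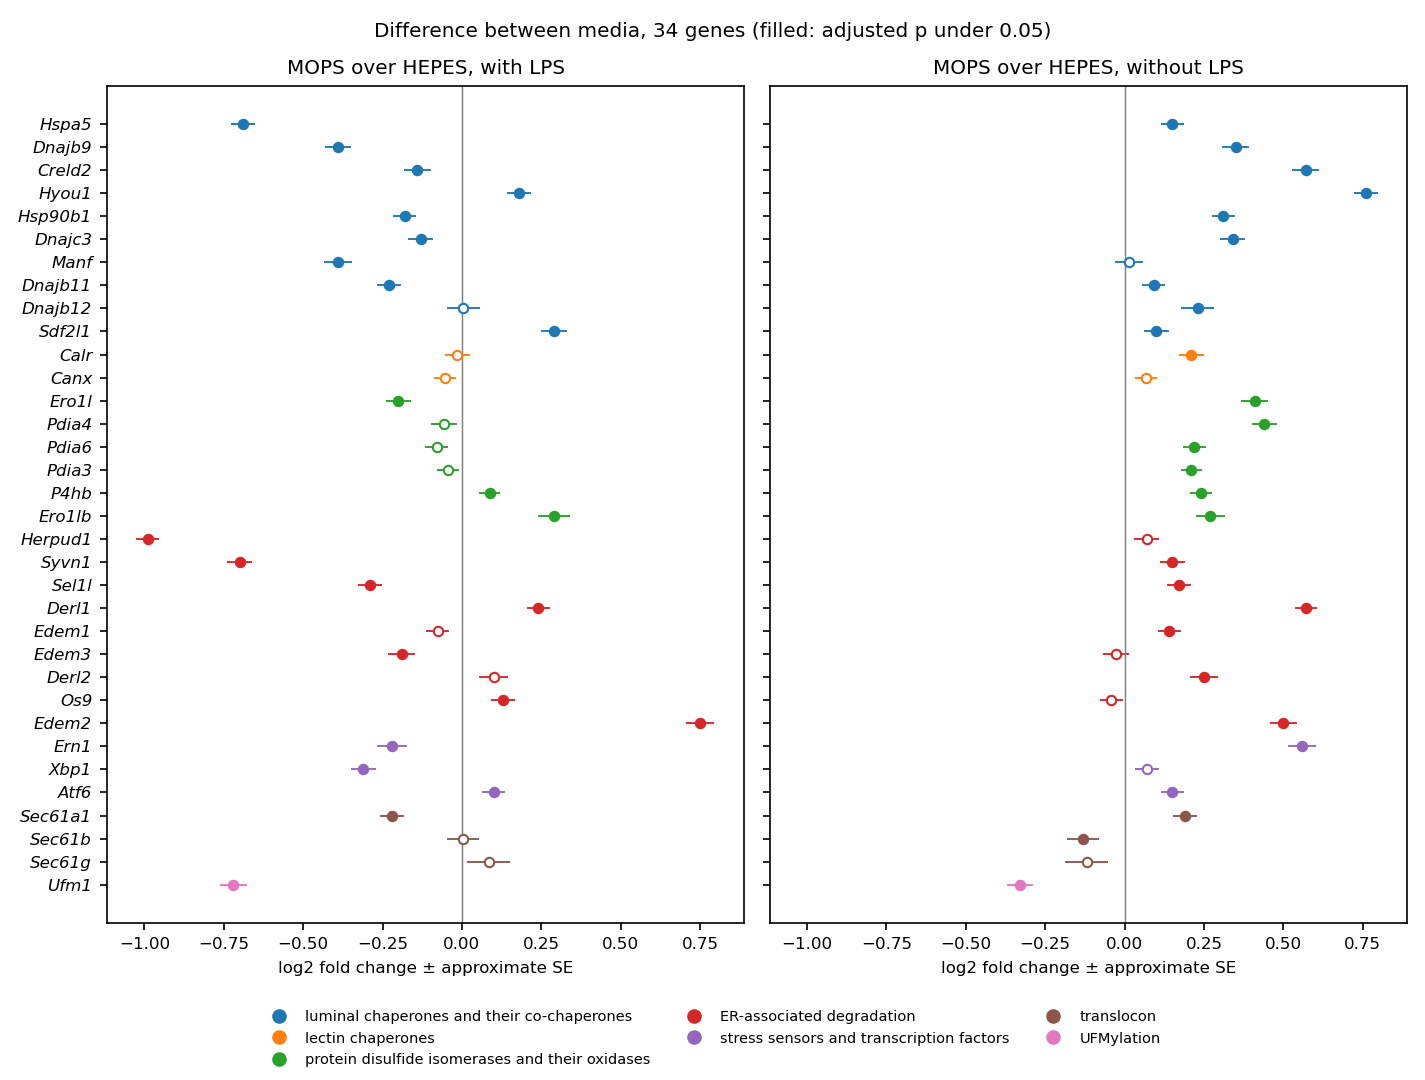
Log2 fold change of MOPS over HEPES (x axis) for the 34 genes (y axis, grouped and coloured by role) with LPS (left panel) and without LPS (right panel); bars are approximate SE and filled points have an adjusted p under 0.05. Points lie mostly right of 0 without LPS, where 25 are called higher, and many lie left of 0 with LPS, where 16 are called lower.

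LPS changed most of the set. In MOPS 25 of the 34 genes were higher and 6 lower after LPS (34.1% and 34.9% of all tested genes), and in HEPES 27 were higher and 4 lower (35.6% and 41.2%). The median log2 fold change was 0.30 in MOPS (all genes -0.0345) and 0.63 in HEPES (all genes -0.0841). At least 1.5-fold changes were seen for 9 genes in MOPS and 18 in HEPES (8 and 11 with total counts). Without regard to sign, the median of the 34 was 0.31 in MOPS and 0.63 in HEPES, below the 0.48 and 0.68 of all tested genes. The share of all tested genes that changed by at least 1.5-fold was not counted for any comparison. The directions of the LPS changes depend on scaling, because with total counts alone the median of all tested genes moved to -0.5466 in MOPS and to -0.6689 in HEPES. The split of all called genes then was 17.98% higher in MOPS and 20.56% higher in HEPES, against 49.42% and 46.35% with TMM. Under total counts 8 of the 34 were higher and 23 lower in MOPS, and 14 were higher and 14 lower in HEPES. Hspa5, Dnajb9, Herpud1, Syvn1, Xbp1, Manf and Ero1l were higher after LPS in both media under both scalings, while Hsp90b1, Hyou1, Creld2, Pdia6, Dnajb11, Sec61a1 and Ufm1 were so in HEPES and had values below 0 in MOPS under total counts. The 2 LPS comparisons and the 2 comparisons of media share libraries, so they are not independent of one another.

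Whether LPS acted differently in the media was tested by the interaction: on the log2 scale, the change in MOPS minus that in HEPES. It was called below 0 for 25 of the 34 genes and called above 0 for 3, against 17.6% called below and 21.9% called above among all tested genes. The median was -0.32 (all genes 0.0598) and the range ran from -1.06 for Herpud1 to 0.25 for Edem2. Of the 25, 22 were called under each alternative, total counts included, where the split of all called genes was 66.37% above 0 against 55.48% with TMM. The exceptions were P4hb, Edem3 and Dnajb12. Leaving out MOPS+LPS replicate 7 or 8, or HEPES+LPS replicate 10, 11 or 12, moved the interaction median of all genes to between 0.006762 and 0.01494. Differences of at least 1.5-fold were seen for 7 genes: Herpud1, Hspa5, Syvn1, Ern1, Dnajb9, Creld2 and Ero1l. Without regard to sign, the median interaction was 0.32 for the 34 genes and 0.31 for all tested genes.

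**Figure D3:**
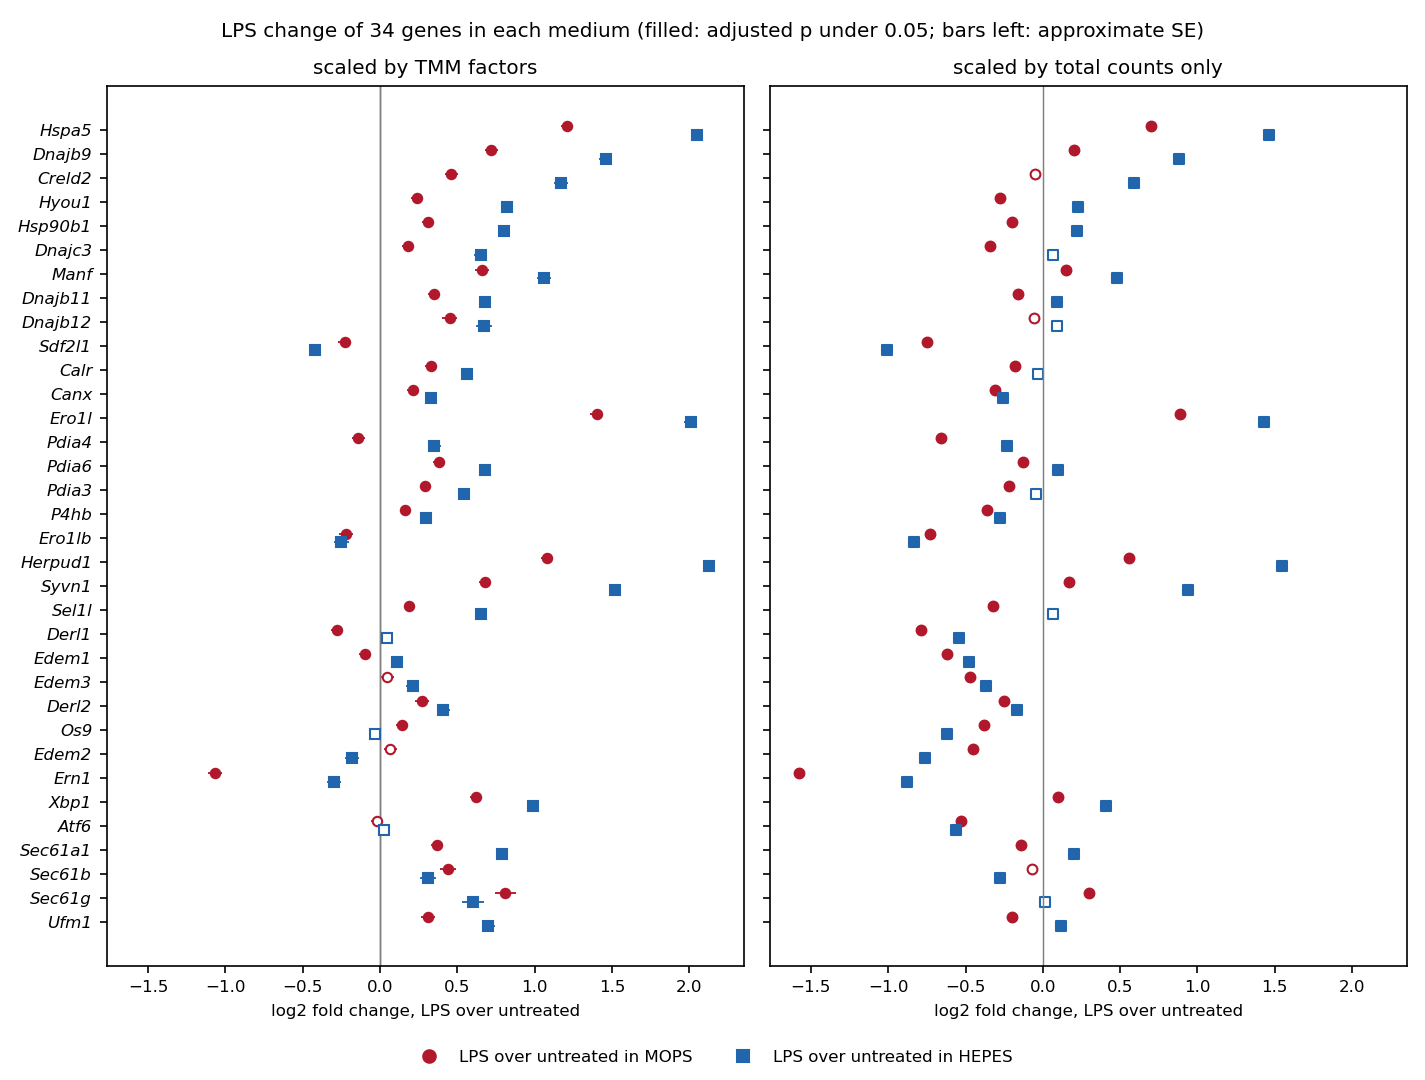
Log2 fold change of LPS over untreated (x axis) in MOPS (circles) and HEPES (squares) for the 34 genes (y axis, grouped by role), scaled by TMM (left panel, bars are approximate SE) and by total counts alone (right panel); filled points have an adjusted p under 0.05. The points of HEPES lie right of those of MOPS for most genes under both scalings, while 25 genes in MOPS and 27 in HEPES are called higher with TMM and 8 and 14 with total counts.

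The luminal chaperones were led by Hspa5 (BiP or GRP78; ENSMUSG00000026864, chr2:34771970-34777547, + strand, mm10), the Hsp70 of the ER lumen that also holds the sensors inactive. Hspa5 had 7749, 7410.1 and 7367 CPM in MOPS+LPS, 12589, 12227 and 11586 CPM in HEPES+LPS, 3232, 3247 and 3247 CPM in MOPS, and 2949, 2992 and 2855 CPM in HEPES. The 4 groups did not overlap: HEPES+LPS was highest, MOPS+LPS next, and MOPS stood just above HEPES. The log2 fold change of LPS over untreated was 1.21 ± 0.037 (approximate SE) in MOPS and 2.05 ± 0.038 in HEPES, and the interaction was -0.84 ± 0.052 (adjusted p = 8.55e-14). Between media the log2 fold change was -0.69 ± 0.037 with LPS (adjusted p = 2.32e-16) and 0.15 ± 0.037 without it (adjusted p = 0.00141). Per kilobase of gene model, Hspa5 had the highest level of the 34 genes in each group, from 1776 CPM per kb in MOPS+LPS and 2869 in HEPES+LPS to 767 in MOPS and 693 in HEPES. Calr was second in each group, and Ero1l in HEPES and Ero1lb in the other 3 groups had the lowest level, with Ufm1 level with Ero1lb in MOPS at 10.6 CPM per kb.

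Hsp90b1, the ER Hsp90 (chr10:86690209-86705509, - strand), had 1654, 1666 and 1624 CPM in MOPS+LPS, 1890.0, 1927 and 1784 CPM in HEPES+LPS, 1338, 1331 and 1313 CPM in MOPS, and 1089, 1081 and 1041 CPM in HEPES. Its groups stood in the same order as those of Hspa5, with no overlap. Its log2 fold change between media was -0.18 ± 0.036 with LPS (adjusted p = 7.94e-05) and 0.31 ± 0.036 without (adjusted p = 1.38e-08), and its interaction was -0.49 ± 0.051 (adjusted p = 3.90e-09).

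Hyou1 (ENSMUSG00000032115, chr9:44379490-44392369, + strand), the nucleotide exchange factor that resets BiP, had the largest difference between media without LPS. It had 685, 693 and 676 CPM in MOPS+LPS, 645, 592 and 581 CPM in HEPES+LPS, 576, 576 and 591 CPM in MOPS, and 339, 347 and 346 CPM in HEPES. HEPES without LPS stood alone at the low end, and MOPS was higher than HEPES in both states with no overlap. MOPS over HEPES gave a log2 fold change of 0.18 ± 0.038 with LPS (adjusted p = 1.95e-04) and 0.76 ± 0.038 without (adjusted p = 6.89e-17), and the interaction was -0.58 ± 0.054 (adjusted p = 4.24e-10).

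Creld2, an ER-resident protein induced by ER stress (chr15:88819646-88826683, + strand), had 226, 209 and 225 CPM in MOPS+LPS, 254, 238 and 237 CPM in HEPES+LPS, 157, 166 and 155 CPM in MOPS, and 110.2, 109 and 104 CPM in HEPES. MOPS lay above HEPES without LPS and below it with LPS, without overlap in either state. Between media the log2 fold change was -0.14 ± 0.042 with LPS (adjusted p = 0.00496) and 0.57 ± 0.043 without (adjusted p = 1.53e-12), and the value with LPS became -0.05 (adjusted p = 0.316) with total counts. The interaction was -0.71 ± 0.06 (adjusted p = 7.41e-11).

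Sdf2l1, a small protein that works with the J protein Dnajb11 (chr16:17130138-17132383, - strand), was the one gene of this class that fell after LPS in both media, under both scalings. It had 246, 248 and 264 CPM in MOPS+LPS, 212, 205 and 200.5 CPM in HEPES+LPS, 304, 301 and 285 CPM in MOPS, and 265, 285 and 280.0 CPM in HEPES. HEPES+LPS was lowest and did not overlap MOPS+LPS, and in the untreated groups the lowest MOPS and the highest HEPES library were both at 285 CPM. The log2 fold change of LPS over untreated was -0.23 ± 0.04 in MOPS (adjusted p = 6.44e-06) and -0.42 ± 0.041 in HEPES (adjusted p = 6.28e-11). The interaction of 0.19 ± 0.057 (adjusted p = 0.00823) lost its call without HEPES+LPS replicate 11 (0.14, adjusted p = 0.0816) or replicate 12 (0.12, adjusted p = 0.137). Its difference between untreated media, 0.10 ± 0.04 (adjusted p = 0.0323), lost its call without MOPS replicate 1 or 2 (adjusted p = 0.136 and 0.109), and without HEPES replicate 4 or 6 (adjusted p = 0.204 and 0.0543).

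The remaining genes of this class are J proteins, which hand substrates to Hsp70 chaperones, and Manf, a secreted factor that binds BiP. Dnajb9 (ERdj4) averaged 224 ± 9.54 CPM in MOPS+LPS, 294 ± 11.2 CPM in HEPES+LPS, 136 ± 2.44 CPM in MOPS and 107 ± 3.62 CPM in HEPES (SD, n = 3 each), with an interaction of -0.75 ± 0.058 (adjusted p = 1.52e-11). Manf averaged 409 ± 19.7, 534 ± 16.4, 258 ± 14.9 and 256 ± 9.81 CPM in the same 4 groups, with an interaction of -0.40 ± 0.061 (adjusted p = 4.24e-06). Manf was thus at one level in the untreated media, where its libraries overlapped, and lower in MOPS once LPS was present. The interaction was -0.33 for Dnajb11 (ERdj3), -0.47 for Dnajc3 (p58IPK) and -0.22 for Dnajb12, whose J domain faces the cytosol and serves degradation. Dnajb12 lost its call without MOPS replicate 2 (-0.18, adjusted p = 0.0665). The higher level of Dnajb11 in untreated MOPS (0.091, adjusted p = 0.0423) lost its call without MOPS replicate 2 or 3 (adjusted p = 0.168 and 0.0871) and without HEPES replicate 4, 5 or 6 (adjusted p = 0.128, 0.0542 and 0.115). Reads of Manf may be shared with Rbm15b, a gene on the same strand whose exons overlap it by 14 bases and whose count was 16.4% of that of Manf. Dcaf1 overlaps Manf by 146 exon bases on the other strand, and its count was 9.08% of that of Manf.

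**Figure D4:**
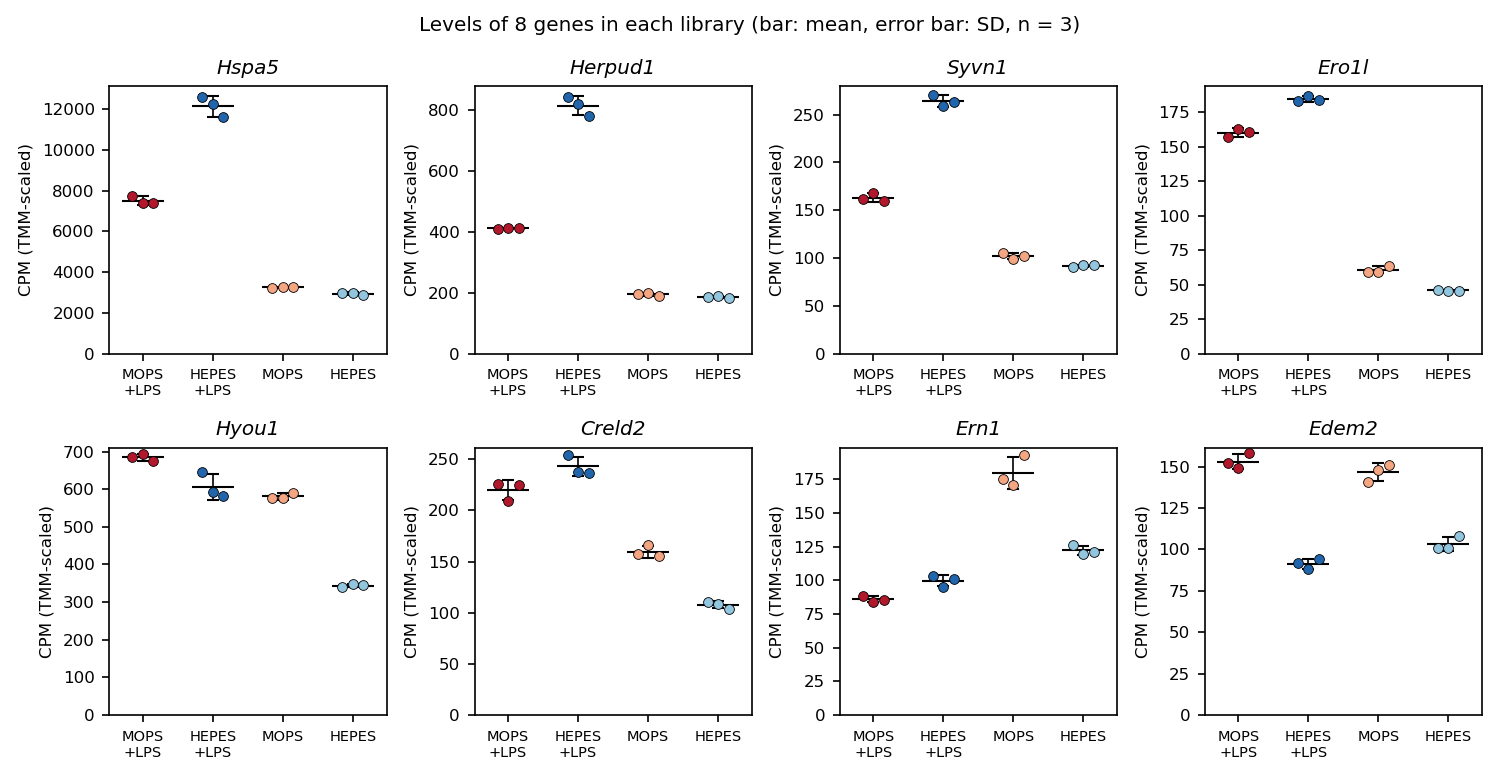
CPM (y axis, TMM-scaled, from 0) of 8 genes in each of the 12 libraries (points) of the 4 groups, with group means and SD (n = 3). Hspa5, Herpud1 and Syvn1 peak in HEPES+LPS, Ern1 is lowest in MOPS+LPS, and Edem2 is higher in MOPS than in HEPES with and without LPS.

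The lectin chaperones calreticulin (Calr) and calnexin (Canx), which hold glycoproteins during folding, differed little between media. Calr averaged 1692 ± 66.8 CPM in MOPS+LPS, 1709.6 ± 79.9 CPM in HEPES+LPS, 1345 ± 12.1 CPM in MOPS and 1163 ± 37 CPM in HEPES (SD, n = 3 each). The libraries of the LPS groups overlapped (log2 fold change -0.015 ± 0.039, adjusted p = 0.766), whereas untreated MOPS stood above HEPES (0.21 ± 0.039, adjusted p = 3.90e-05). Canx was not called between media in either state (-0.054 ± 0.035 with LPS, 0.067 ± 0.035 without), nor in the interaction (-0.12, adjusted p = 0.0539). Between untreated media Canx was called higher in MOPS with RLE factors, total counts, DESeq2 or the compared groups alone (adjusted p = 0.0345, 0.0284, 0.0124 and 0.041), and between LPS groups lower in MOPS without MOPS+LPS replicate 7 or HEPES+LPS replicate 12 (adjusted p = 0.0102 and 0.0136). The interaction was called without MOPS+LPS replicate 7 or 8 (adjusted p = 0.00358 and 0.0181), without HEPES+LPS replicate 10, 11 or 12 (adjusted p = 0.0186, 0.0209 and 0.00545), with RLE factors (adjusted p = 0.0129) and with DESeq2 (adjusted p = 0.00225). A deposited pseudogene of calreticulin, Calr-ps, had 0 counts.

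The disulfide isomerases, which make and rearrange disulfide bonds, were each higher in untreated MOPS than in untreated HEPES, by a log2 fold change of 0.21 (Pdia3), 0.22 (Pdia6), 0.24 (P4hb) and 0.44 (Pdia4). With LPS, Pdia3, Pdia4 and Pdia6 were not called between media, with values of -0.043, -0.057 and -0.080. Pdia6 lay at the threshold (adjusted p = 0.0501) and was called lower with RLE factors (adjusted p = 0.0249), with DESeq2 (adjusted p = 0.00855), without MOPS+LPS replicate 7 or 8 (adjusted p = 0.00721 and 0.0177) and without HEPES+LPS replicate 10, 11 or 12 (adjusted p = 0.0292, 0.00537 and 0.00478). Pdia3 was called lower without MOPS+LPS replicate 7 (adjusted p = 0.0491) or HEPES+LPS replicate 10 (adjusted p = 0.0292), and Pdia4 without HEPES+LPS replicate 12 (adjusted p = 0.0056). P4hb was then 0.087 ± 0.034 higher in MOPS (adjusted p = 0.0322), a call lost on leaving out each of the 6 LPS libraries in turn, where it lay between 0.034 and 0.066. Pdia4 averaged 270.0 ± 4.77 CPM in MOPS+LPS, 281 ± 16.1 CPM in HEPES+LPS, 298 ± 7.54 CPM in MOPS and 219.6 ± 7.09 CPM in HEPES (SD, n = 3 each). Its LPS change was -0.14 ± 0.041 in MOPS and 0.35 ± 0.041 in HEPES (-0.23 in HEPES with total counts), with an interaction of -0.50 ± 0.057 (adjusted p = 3.05e-08).

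The oxidases Ero1l and Ero1lb, which pass electrons from the isomerases to oxygen, went opposite ways after LPS. Ero1l (chr14:45283087-45318771, - strand) had 157, 163 and 161 CPM in MOPS+LPS, 183, 187 and 184 CPM in HEPES+LPS, 59.2, 59.2 and 63.6 CPM in MOPS, and 46.2, 45.5 and 45.7 CPM in HEPES. LPS libraries were far above untreated ones, and MOPS lay below HEPES+LPS but above it without, with no overlap. The LPS change of Ero1l was 1.40 ± 0.041 in MOPS (adjusted p = 1.15e-23) and 2.01 ± 0.042 in HEPES (adjusted p = 8.14e-28), and the interaction was -0.61 ± 0.059 (adjusted p = 9.82e-10).

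Ero1lb (chr13:12565874-12611396, + strand) had 61, 58.5 and 62.8 CPM in MOPS+LPS, 48.7, 51 and 49 CPM in HEPES+LPS, 72.9, 71 and 68.4 CPM in MOPS, and 60.2, 57 and 59.3 CPM in HEPES. It was lower after LPS in each medium and higher in MOPS than in HEPES in each state. Its log2 fold change of MOPS over HEPES was 0.29 ± 0.049 with LPS (adjusted p = 7.73e-06) and 0.27 ± 0.045 without (adjusted p = 1.11e-05). The interaction was 0.025 ± 0.067 (adjusted p = 0.805).

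In the degradation machinery, Herpud1 (ENSMUSG00000031770, chr8:94386438-94395377, + strand), a membrane protein that organises the HRD1 ligase complex, had the largest difference between media of any of the 34 genes. It had 408, 412 and 413 CPM in MOPS+LPS, 842, 821 and 781 CPM in HEPES+LPS, 197, 198 and 189 CPM in MOPS, and 186, 189.8 and 181 CPM in HEPES. The untreated groups overlapped, while with LPS every MOPS library was well below every HEPES library. MOPS over HEPES gave a log2 fold change of -0.99 ± 0.037 with LPS (adjusted p = 4.07e-20) and 0.069 ± 0.038 without (adjusted p = 0.136; adjusted p = 0.0452 with total counts, 0.0444 with RLE factors and 0.045 with DESeq2). The LPS change was 1.08 ± 0.038 in MOPS and 2.13 ± 0.038 in HEPES, with an interaction of -1.06 ± 0.053 (adjusted p = 6.68e-16).

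Syvn1 (HRD1; ENSMUSG00000024807, chr19:6046576-6053712, + strand), the ubiquitin ligase of that complex, had 162, 168 and 159.8 CPM in MOPS+LPS, 271, 259 and 263 CPM in HEPES+LPS, 105, 99.2 and 102 CPM in MOPS, and 90.7, 92.5 and 92.4 CPM in HEPES. The order of the groups matched that of Hspa5, without overlap. Its log2 fold change of MOPS over HEPES was -0.70 ± 0.039 with LPS (adjusted p = 6.74e-16) and 0.15 ± 0.04 without (adjusted p = 0.00229), and its interaction was -0.84 ± 0.055 (adjusted p = 2.98e-13). Sel1l, the adaptor of the same ligase, had an interaction of -0.46 ± 0.054 (adjusted p = 3.90e-08). Mrpl49, which overlaps Syvn1 by 91 exon bases on the other strand, had 9.43% of its count, and the strand setting of the counting is not given in the sources used here.

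Edem2, one of the mannosidase-like proteins that mark glycoproteins for degradation (ENSMUSG00000038312, chr2:155701677-155729475, - strand), behaved differently. It had 152, 149 and 158 CPM in MOPS+LPS, 91.6, 88 and 93.9 CPM in HEPES+LPS, 140.4, 148 and 151 CPM in MOPS, and 101, 101 and 108 CPM in HEPES. Both MOPS groups were above both HEPES groups, and LPS separated the libraries in HEPES but not in MOPS. The log2 fold change of MOPS over HEPES was 0.75 ± 0.044 with LPS (adjusted p = 2.41e-15) and 0.50 ± 0.042 without (adjusted p = 1.41e-11), and the interaction was 0.25 ± 0.061 (adjusted p = 0.00157). Edem1 had an interaction of -0.21 ± 0.051 (adjusted p = 0.00109). Edem3 had -0.17 ± 0.059 (adjusted p = 0.0265), which lost its call without MOPS replicate 3 (adjusted p = 0.0958) or HEPES replicate 6 (adjusted p = 0.0514).

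Derl1, a derlin of the retrotranslocation channel (chr15:57869502-57892448, - strand), had 369, 371 and 372 CPM in MOPS+LPS, 315, 315 and 308 CPM in HEPES+LPS, 461, 440.0 and 444 CPM in MOPS, and 305, 308 and 295 CPM in HEPES. MOPS was above HEPES in both states, most of all without LPS, and no MOPS library reached the HEPES range. MOPS over HEPES gave a log2 fold change of 0.24 ± 0.036 with LPS (adjusted p = 7.59e-07) and 0.57 ± 0.035 without (adjusted p = 1.31e-14), and the interaction was -0.32 ± 0.05 (adjusted p = 4.61e-06). For its relative Derl2 the count may include reads of Mis12, which overlaps it by 231 exon bases on the other strand and had 41.1% of its count.

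Os9, a lectin that delivers glycoproteins to the HRD1 complex (chr10:127095650-127121131, - strand), had 255, 239 and 249.9 CPM in MOPS+LPS, 233, 221 and 228 CPM in HEPES+LPS, 227, 228 and 222 CPM in MOPS, and 231, 236 and 229 CPM in HEPES. MOPS+LPS was highest, and the other 3 groups lay close together. Its interaction of 0.17 ± 0.053 (adjusted p = 0.012) lost its call without MOPS+LPS replicate 7 (adjusted p = 0.181) and without HEPES+LPS replicate 10, 11 or 12 (adjusted p = 0.0528, 0.173 and 0.114). The difference between media with LPS, 0.13 ± 0.038 (adjusted p = 0.00556), lost its call without MOPS+LPS replicate 7 (adjusted p = 0.238) and without HEPES+LPS replicate 11 or 12 (adjusted p = 0.215 and 0.12).

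Among the sensors and their factors, Ern1 (IRE1; ENSMUSG00000020715, chr11:106394650-106487852, - strand) fell after LPS, most in MOPS. It had 88.2, 83.6 and 85.7 CPM in MOPS+LPS, 103, 95.3 and 101 CPM in HEPES+LPS, 175, 171 and 193 CPM in MOPS, and 126, 119.7 and 121 CPM in HEPES. MOPS was the highest of the untreated groups and the lowest of the LPS groups, with no overlap. The LPS change was -1.07 ± 0.046 in MOPS (adjusted p = 2.90e-19) and -0.30 ± 0.046 in HEPES (adjusted p = 9.22e-07), with an interaction of -0.77 ± 0.065 (adjusted p = 7.40e-11). Its log2 fold change of MOPS over HEPES was -0.22 ± 0.048 with LPS (adjusted p = 3.21e-04) and 0.56 ± 0.044 without (adjusted p = 5.31e-12).

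Xbp1, the mRNA that IRE1 splices (ENSMUSG00000020484, chr11:5520659-5525893, + strand), rose after LPS, where Ern1 fell, under both scalings. It had 327, 304 and 315 CPM in MOPS+LPS, 399, 399 and 373 CPM in HEPES+LPS, 207, 208 and 202 CPM in MOPS, and 196, 197 and 194 CPM in HEPES. LPS libraries were above untreated ones in each medium, and HEPES+LPS was highest. The LPS change was 0.62 ± 0.038 in MOPS (adjusted p = 2.80e-15) and 0.99 ± 0.038 in HEPES (adjusted p = 7.10e-21), and the interaction was -0.38 ± 0.054 (adjusted p = 1.19e-06). Between untreated media its log2 fold change of 0.070 ± 0.038 was not called (adjusted p = 0.133), but it was with total counts (0.091, adjusted p = 0.0409) and RLE factors (adjusted p = 0.0447).

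Atf6 (ENSMUSG00000026663, chr1:170704674-170867771, - strand) had 177, 174 and 176 CPM in MOPS+LPS, 160.4, 165 and 166 CPM in HEPES+LPS, 178, 177 and 179 CPM in MOPS, and 159, 159.6 and 163 CPM in HEPES. MOPS was above HEPES in both states, and LPS and untreated HEPES libraries overlapped. The interaction was -0.048 ± 0.052 (adjusted p = 0.5), and the LPS change was -0.020 in MOPS and 0.028 in HEPES, neither called, though with total counts both were below 0 (-0.53 and -0.56). The difference between media without LPS was 0.15 ± 0.036 (adjusted p = 9.50e-04). With LPS it was 0.10 ± 0.037 (adjusted p = 0.0218), a call that was lost on leaving out each of the 6 LPS libraries in turn, with values of 0.043 to 0.097.

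The translocon, the channel through which new proteins enter the ER, was split. Its pore subunit Sec61a1 averaged 306 ± 11.3 CPM in MOPS+LPS, 356 ± 9.96 CPM in HEPES+LPS, 236 ± 7.05 CPM in MOPS and 207 ± 2.56 CPM in HEPES (SD, n = 3 each), with an interaction of -0.41 ± 0.054 (adjusted p = 2.78e-07). The small subunit Sec61b (chr4:47474658-47483242, + strand) had 110.3, 101 and 99.9 CPM in MOPS+LPS, 98.9, 107 and 105 CPM in HEPES+LPS, 79.5, 76.3 and 73.1 CPM in MOPS, and 78.2, 89.2 and 83.3 CPM in HEPES. LPS libraries were above untreated ones, and the media overlapped in both states. Its lower level in untreated MOPS (-0.13 ± 0.05, adjusted p = 0.0304) lost its call without MOPS replicate 2 or 3 (adjusted p = 0.07 and 0.143), without HEPES replicate 5 or 6 (adjusted p = 0.23 and 0.0526), and with total counts (adjusted p = 0.0622). Its interaction was 0.13 ± 0.071 (adjusted p = 0.14), and that of the other small subunit Sec61g was 0.21 ± 0.097 (adjusted p = 0.0968). Both small-subunit interactions were called with total counts (0.21 and 0.28), that of Sec61b also without HEPES replicate 4 (adjusted p = 0.0459) and that of Sec61g without HEPES replicate 6 (adjusted p = 0.048) or MOPS+LPS replicate 8 (adjusted p = 0.0449).

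Ufm1, the ubiquitin-like modifier that is attached to ribosomes at the ER (ENSMUSG00000027746, chr3:53853376-53863830, - strand), was lower in MOPS in both states. It had 79.4, 76.5 and 80 CPM in MOPS+LPS, 132, 129 and 127 CPM in HEPES+LPS, 64, 63.4 and 62.7 CPM in MOPS, and 79.2, 82.3 and 76.8 CPM in HEPES. The LPS libraries of MOPS overlapped those of untreated HEPES, and HEPES+LPS stood far above the rest. The log2 fold change of MOPS over HEPES was -0.72 ± 0.043 with LPS (adjusted p = 3.38e-15) and -0.33 ± 0.042 without (adjusted p = 1.35e-07), and the interaction was -0.39 ± 0.06 (adjusted p = 3.87e-06).

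A ratio of 2 genes within a library needs no scaling between libraries, whereas a share of all counts amounts to scaling by total counts. The 34 genes together took 1.83% to 1.84% of all counts in MOPS+LPS, 2.11% to 2.24% in HEPES+LPS, 1.82% in each MOPS library and 1.53% to 1.55% in HEPES. Thus the set, Hspa5 included, held nearly the same share in MOPS with and without LPS, and a larger one in HEPES+LPS than in HEPES. Hspa5 made up 34.4% to 35.4% of the counts of the set in MOPS+LPS and 43.9% to 44.9% in HEPES+LPS. In untreated libraries that part was 21.7% to 21.8% in MOPS and 22.6% to 23% in HEPES. The share of the set thus depended in part on this gene, and the share without it was not computed. Hspa5 alone made up 0.63% to 0.652%, 0.928% to 1.01%, 0.394% to 0.396% and 0.345% to 0.356% of all counts in the same 4 groups. For each count of Hsp90b1 there were 4.45 to 4.68 counts of Hspa5 in MOPS+LPS, 6.34 to 6.66 in HEPES+LPS, 2.41 to 2.47 in MOPS and 2.71 to 2.77 in HEPES. For each count of Canx there were 0.513 to 0.546, 1.0 to 1.03, 0.281 to 0.298 and 0.289 to 0.293 counts of Herpud1. Both ratios were thus lower in MOPS+LPS than in HEPES+LPS in every library, and higher in each than in the untreated libraries.

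**Figure D5:**
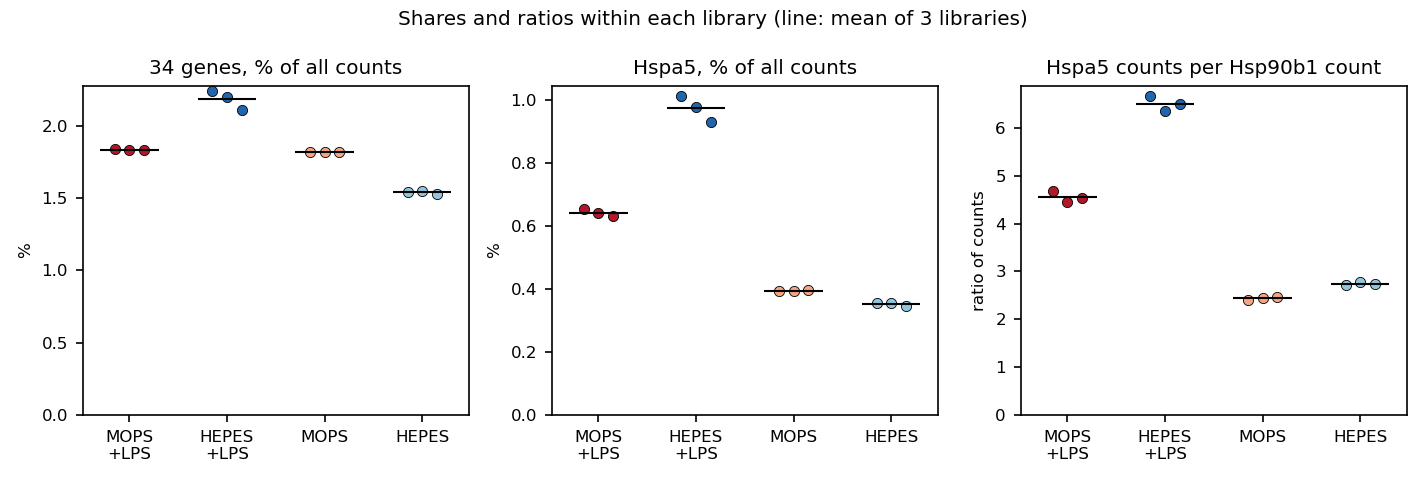
Share of all counts taken by the 34 genes together (left, %) and by Hspa5 (middle, %) and the number of Hspa5 counts for each Hsp90b1 count (right) in each of the 12 libraries (points; the line is the mean of 3). Hspa5 takes 0.928% to 1.01% of counts in HEPES+LPS, above the 0.63% to 0.652% in MOPS+LPS and both untreated groups.

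The genes with an ER stress response element in the window and the other genes with a window were described side by side, with no test. The interaction was called below 0 for 7 of the 9 genes with the element (median -0.47, range -0.84 to 0.03) and for 14 of the 20 without it (median -0.23, range -1.06 to 0.25). Among the 9, Canx and Ero1lb were not called, and with TMM Ero1lb was the one that fell after LPS. With total counts Canx also fell, by -0.31 in MOPS and -0.26 in HEPES. In MOPS alone Hsp90b1 (-0.20), Pdia6 (-0.13), Calr (-0.18) and Dnajc3 (-0.34) were then called lower too. The 20 without it include Herpud1 with its element II, and also Dnajb9, Ero1l and Ern1, each with an interaction of at least 1.5-fold.

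Other genes of the pathway were counted by lists. Among the 8 genes of the PERK arm, between untreated media 7 were higher and 1 (Chac1) lower in MOPS, between LPS groups 7 were lower in MOPS and Ppp1r15a was not called (0.059, adjusted p = 0.295), and the interaction was below 0 for 8 of 8 (median -0.51). Sesn2, an ATF4 target, averaged 37.1 ± 2.27 CPM in MOPS+LPS, 70.2 ± 4.11 CPM in HEPES+LPS, 72.7 ± 1.75 CPM in MOPS and 49.4 ± 3.14 CPM in HEPES (SD, n = 3 each), with an interaction of -1.48 ± 0.078 (adjusted p = 2.28e-15). Trib3, a pseudokinase induced by ATF4 and CHOP, averaged 29.8 ± 0.883, 36.7 ± 1.65, 79.3 ± 0.331 and 40.4 ± 2.58 CPM in the same groups, with an interaction of -1.27 ± 0.077 (adjusted p = 4.78e-14). Trib3 was highest in untreated MOPS, while Sesn2 was about as high there as in HEPES+LPS. With total counts the interaction was still below 0 for 8 of 8, and with LPS 6 were lower and 1 higher in MOPS.

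Of 17 further degradation genes the interaction was called below 0 for 9 and above 0 for 1, led by Selenos and Nploc4 (both -0.49). Without LPS 11 of them were called higher in MOPS and 0 lower. Of 22 translocon, signal peptidase and oligosaccharyltransferase genes the interaction was called below 0 for 7 and above 0 for 1 (Ssr3 -0.47, Sec62 -0.36). Between untreated media 16 of them were called higher and 0 lower in MOPS, and between LPS groups 10 higher and 3 lower. Of 11 glycoprotein folding and export lectins the interaction was called below 0 for 3 and above 0 for 1. Lman1, a cargo receptor, was higher in MOPS both with LPS (0.55 ± 0.039) and without (0.52 ± 0.038). The 19 other isomerases and co-chaperones were mixed, with the interaction called below 0 for 7 and above 0 for 6, among them Erp29 (0.61 ± 0.059) and Dnajb14 (0.65 ± 0.08).

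Of 7 ATF6-processing and related factors the interaction was called below 0 for 2 (Creb3l1 -0.83, Creb3l2 -0.22) and above 0 for 1, but for 1 and 3 with total counts. The 7 enzymes that attach or remove Ufm1 did not all share its direction: between LPS groups 5 were called higher and 1 lower in MOPS. Their interaction was called above 0 for 3, among them Cdk5rap3 (0.57 ± 0.08). Of 19 cytosolic and mitochondrial chaperones the interaction was called below 0 for 9 and above 0 for 3, with Hsp90aa1 at -0.60 ± 0.055 and Hspa4l at 0.79 ± 0.081. With total counts the interaction was called below 0 for 7 of the degradation genes and for 4 of the other isomerases, and above 0 for 2 and 7. For these 8 lists the shares of all tested genes given for each comparison are the background, and members of each were counted, not tested as a set.

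Markers of the cells were checked because antibody-secreting cells are rich in ER chaperones. All 8 macrophage markers were present, with summed levels of 21644 to 24471 CPM in MOPS+LPS, 33884 to 35547 in HEPES+LPS, 17275 to 17517 in MOPS and 26439 to 27821 in HEPES. Lyz2 made up most of each sum, averaging 13827, 23350.0, 12599 and 21982 CPM in these groups. Lyz2, Cd68 and Itgam were lower in MOPS in both states, Csf1r and Mertk were higher in both, and the others differed by state. The sums of 5 large peritoneal macrophage markers were 108 to 122, 256 to 288, 114 to 119 and 155 to 164 CPM, so lower in MOPS in both states. Timd4 and Selp were lower in MOPS in both. Gata6 was lower with LPS (48.1 against 133 CPM) and higher without it (36.7 against 30.2), and Icam2 and Garnl3 went the other way. The sums of 8 B cell markers were 124 to 137, 39.9 to 43.2, 211 to 220.2 and 114 to 183 CPM in the same groups, so higher in MOPS in both states. The sums of 6 plasma cell markers were 258 to 279, 229 to 237, 95.6 to 100 and 52.4 to 54.9 CPM, mostly from Prdm1 and Sdc1. The defining genes Jchain and Tnfrsf17 averaged at most 1.19 and 0.103 CPM in any group and Mzb1 10.8. Mzb1, Jchain and Derl3 were higher in MOPS in both states, and Tnfrsf17 was not. Mzb1 averaged 7.65 CPM in MOPS+LPS, 0.797 in HEPES+LPS, 10.8 in MOPS and 3.42 in HEPES. T and NK cell markers summed to at most 1.09 CPM, granulocyte and mast cell markers to at most 26.7 and mesothelial and stromal markers to at most 6.22. The part of these cells in the results on the 34 genes was not tested.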

How the data were processed

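RNA-seq counts of 12 libraries were used. Per the file headers, the deposited values are read counts, whole numbers for each gene and library. The submitters' processing notes name CASAVA 1.8, HISAT2 2.0.5, featureCounts 1.5.0-p3 and mm10, without roles. What annotation release and strand setting were used is not stated there. The 12 FPKM columns and the authors' comparison columns were not used. Of the gene IDs, 54495 were found in GENCODE vM21, 98.3% of them at the same coordinates.

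The analysis used edgeR 4.0.16 in R 4.3.3: filterByExpr by group left 14506 genes, TMM factors scaled libraries, and robust quasi-likelihood F tests were run in a means model of the 4 groups over all 12 libraries (8 residual degrees of freedom), with Benjamini-Hochberg adjustment over all tested genes and a threshold of 0.05. The common biological coefficient of variation was 4.62%. The approximate SE is the log2 fold change divided by the root of F. The 17 alternatives were RLE factors, total counts, no filter, DESeq2 1.42.0, the compared groups alone and leaving out each library. Within groups, chi-square per degree of freedom between libraries was 2.79 to 7.1, so none were copies. The script was tested on simulated data. Tables and figures used Python 3.11.15, pandas 2.3.3 and matplotlib 3.10.9. Promoter windows are from RefSeq (GRCm38.p6).

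The members and lists were chosen with earlier results of these data known. Members given in every library are, in each comparison, the 3 with the largest called change in each direction, plus Hspa5, Xbp1, Ern1, Atf6 and Herpud1; Hsp90b1 was added after its values were seen. In each further list the 2 genes with the smallest p were named, but 1 result that this rule gives is not reported here.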

Additional observations from a re-analysis of the deposited data

Results flagged for a closer look

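The LPS change differed between media for 28 of the 34 genes by edgeR's interaction test with Benjamini-Hochberg adjustment. In the same test 17.6% of all tested genes were called below 0 and 21.9% above 0. Values are the LPS change in MOPS minus the LPS change in HEPES on the log2 scale, so a negative value is a smaller rise or a larger fall in MOPS. Among chaperones and co-chaperones it was -0.84 for Hspa5, -0.75 for Dnajb9, -0.71 for Creld2, -0.58 for Hyou1, -0.49 for Hsp90b1, -0.47 for Dnajc3, -0.40 for Manf, -0.33 for Dnajb11, -0.22 for Dnajb12 and 0.19 for Sdf2l1. Calr had -0.22. Among isomerases and oxidases it was -0.61 for Ero1l, -0.50 for Pdia4, -0.30 for Pdia6, -0.25 for Pdia3 and -0.15 for P4hb. In the degradation machinery it was -1.06 for Herpud1, -0.84 for Syvn1, -0.46 for Sel1l, -0.32 for Derl1, -0.21 for Edem1, -0.17 for Edem3, 0.17 for Os9 and 0.25 for Edem2. Ern1 had -0.77, Xbp1 -0.38, Sec61a1 -0.41 and Ufm1 -0.39. With 3 libraries in a group no test for a library far from its group was made.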

How the results depend on the processing

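No paired analysis was possible because the replicate numbers of the labels run from 1 to 12 and none is shared between groups. The choice that mattered most was scaling by total counts alone, and the cause was not tested. With it LPS in MOPS gave 8 genes higher and 23 lower, LPS in HEPES 14 and 14, and the interaction 5 called above 0. These LPS changes in MOPS turned below 0: Derl2 -0.25, Creld2 -0.049, Edem3 -0.47, P4hb -0.36, Pdia6 -0.13, Dnajb11 -0.16, Hsp90b1 -0.20, Canx -0.31, Hyou1 -0.28, Dnajb12 -0.059, Ufm1 -0.20, Sel1l -0.32, Edem2 -0.45, Sec61b -0.07, Calr -0.18, Dnajc3 -0.34, Pdia3 -0.22, Os9 -0.38 and Sec61a1 -0.14. In HEPES the same held for Derl2 -0.17, Atf6 -0.56, Edem3 -0.37, P4hb -0.28, Derl1 -0.54, Canx -0.26, Pdia4 -0.23, Sec61b -0.28, Calr -0.029, Pdia3 -0.041 and Edem1 -0.48. The count lower in untreated MOPS was 1 with RLE factors, total counts and DESeq2, since Sec61b lost its call. Leaving out 1 library gave 1 to 2 lower in untreated MOPS (1 without MOPS replicate 2 or 3 or HEPES replicate 5 or 6), 5 to 7 higher in MOPS+LPS (5 without MOPS+LPS replicate 7 or HEPES+LPS replicate 11 or 12), and 1 to 4 interactions above 0 (1 without HEPES+LPS replicate 11 or 12). Genes differing at least 1.5-fold numbered 3 in untreated MOPS over HEPES with RLE factors, total counts and DESeq2 (1 to 2 on leaving out 1 library, 2 without MOPS replicate 2 or 3), and 11 for LPS in HEPES with total counts. The other counts of genes called, or changed at least 1.5-fold, stayed within 1.5 times of the reported ones under the alternatives run. Depth limits little here, since the least counted of the 34 genes had 13924 counts in all. The number of libraries limits more, with 3 in each group.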
